A study of Mus musculus with 36 samples.

Results

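Cadherins are calcium-dependent adhesion proteins that span the plasma membrane, bind a cadherin on the neighbouring cell, and hold on to the actin cytoskeleton through catenins. The classical type I proteins form strong, broadly expressed junctions, whereas the type II proteins are best known from neurons, where combinations of them mark circuits and nuclei. DNA strands in any nucleus also carry damage, and 2 common lesions are single-strand breaks (SSBs) and abasic (AP) sites, at which a base has been lost from the sugar backbone. The genes described here are 10 mouse cadherin genes taken by symbol, of 49939 annotated genes on chromosomes 1 to 19, X and Y. They are the type I genes Cdh2 (N-cadherin, found in neural tissue and at the intercalated discs of heart muscle) and Cdh4 (R-cadherin, of retina and brain), Cdh13 (T-cadherin, which has no cytoplasmic tail and is held by a GPI anchor, and is abundant in heart and vessels), and the 7 type II genes Cdh7, Cdh8, Cdh9, Cdh10, Cdh12, Cdh18 and Cdh20. They are taken by name, from a list drawn up with earlier results of these data known.

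Both lesions were profiled in male C57BL/6J mice aged 24 months, in 6 tissues: bone marrow after lysis of red cells, whole brain, whole heart, whole liver, PBMCs (mononuclear blood cells from a Ficoll gradient) and motile sperm from the epididymal tail. The labels give 2 mice as the source of the 6 tissues, without stating that a sample number marks the same mouse in every tissue. They name no transgene or treatment, and each tissue sample was profiled with both SSiNGLe, which locates broken strands to the nucleotide, and SSiNGLe-AP, which records abasic nucleotides. There were thus 24 libraries, 12 per lesion and 2 per tissue and lesion. Whole organs and blood fractions mix cell types, so that a lesion density is an average over them, and the DNA lists hold no RNA from which a tissue label could be checked against its markers. RNA profiles of these mice were not analysed here.

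Each library held 225011 to 1041983 SSB positions (median 410489) or 460719 to 963258 AP positions (median 739741). Between 59.8% and 63.4% of the SSB positions and between 59.6% and 62.3% of the AP positions lay within annotated genes. The density of a gene is given as LPKM, the positions in the gene divided by its length and by all positions of the library and multiplied by 1e+09, counted over its whole span in the GRCm38 RefSeq annotation on both strands. It is a share of the lesions of a library and says nothing about how many lesions a genome carried. Every one of the 10 genes held at least 1 position in each of the 24 libraries, and all 10 passed the filter for testing.

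The following 3 short sequences show at which bases lesions lay next to the annotated starts that the later counts turn on. They are the 30 bases just before the first listed start of Cdh7 (chr1:109982870-109982899), Cdh18 (chr15:23036433-23036462) and Cdh20 (chr1:104768490-104768519), all on the plus strand and read 5′ to 3′ from RefSeq (GRCm38). The corresponding 30 bases of Cdh8, Cdh9, Cdh10 and Cdh12 held 0 positions of either lesion and are not printed. A capital letter marks a base at which a lesion was recorded on either strand in any library.
Cdh7: gctgagcaggtgccggtcCGctgcttctgT
Cdh18: cccagcctGgGagcctggggctggaggtgc
Cdh20: caagacccgCggtacacgcaggaggcagcc
The capitals stand for 3 SSB positions in Cdh7, 2 SSB positions in Cdh18 and 1 AP position in Cdh20. No nucleotide was hit in more than 2 SSB libraries in any of the 10 genes, so that single bases are shown as examples and the comparisons rest on counts over windows and genes. All 3 stretches lie inside the annotated spans, since other transcripts of these genes start further upstream.

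The members differ in size and cluster in the genome. Cdh9 (chr15:16728550-16857138, 128589 bp), Cdh10 (chr15:18818869-19016206, 197338 bp), Cdh12 (chr15:20448878-21598421, 1149544 bp) and Cdh18 (chr15:22548898-23477491, 928594 bp) follow each other on chromosome 15. Cdh20 (chr1:104768340-104995481, 227142 bp) and Cdh7 (chr1:109982237-110145272, 163036 bp) lie on chromosome 1. Cdh8 (chr8:99024471-99417666, 393196 bp) and the longest member, Cdh13 (chr8:118140017-119324929, 1184913 bp), share chromosome 8. Cdh4 (chr2:179442423-179899377, 456955 bp) and Cdh2 (chr18:16588877-16809246, 220370 bp) stand alone. A span contains the introns, which make up most of such genes, and no exon map was used.

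Lesion density differed among the members by more than the spread between libraries and fell into nearly the same order for both lesions. Cdh4 was the densest. Its LPKM-SSB ran from 0.731 through a median of 0.804 to 0.957, with a mean of 0.813 ± 0.063 (SD, n = 12), and its LPKM-AP ran from 0.811 through 0.868 to 1.013, with a mean of 0.884 ± 0.061. Of the 2738 genes of 100 kb or longer that held a position, 94.6% had a lower mean LPKM-SSB and 97.2% a lower mean LPKM-AP than Cdh4. Cdh13 followed with 0.563 ± 0.040 for SSBs and 0.641 ± 0.040 for AP sites, and Cdh2 with 0.514 ± 0.074 and 0.524 ± 0.058. The type I and GPI-anchored genes were thus at or above the median of long genes, which was 0.475 for SSBs and 0.494 for AP sites.

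All 7 type II genes lay below that median. Cdh20, Cdh8 and Cdh10 formed a middle group, with mean LPKM-SSB of 0.369 ± 0.078, 0.329 ± 0.060 and 0.317 ± 0.088 and mean LPKM-AP of 0.375 ± 0.042, 0.334 ± 0.065 and 0.247 ± 0.058. The ranges of neighbours in this group overlapped for both lesions. Cdh18, Cdh7, Cdh12 and Cdh9 were the sparsest. Their mean LPKM-SSB was 0.212 ± 0.033, 0.199 ± 0.074, 0.189 ± 0.028 and 0.185 ± 0.059, and their mean LPKM-AP was 0.187 ± 0.022, 0.166 ± 0.033, 0.175 ± 0.023 and 0.161 ± 0.048. These 4 genes could not be ordered beyond their spread, and 5.48% (Cdh9, AP sites) to 8.98% (Cdh18, SSBs) of long genes were less dense. Cdh18 and Cdh12, the longest members after Cdh13, were thus far below it in density. Gene by gene, the variance over the 12 libraries divided by that of Poisson counts lay between 0.713 and 2.13 (SSBs, highest in Cdh12) and between 0.576 and 3.02 (AP sites, highest in Cdh8).

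**Figure D1:**
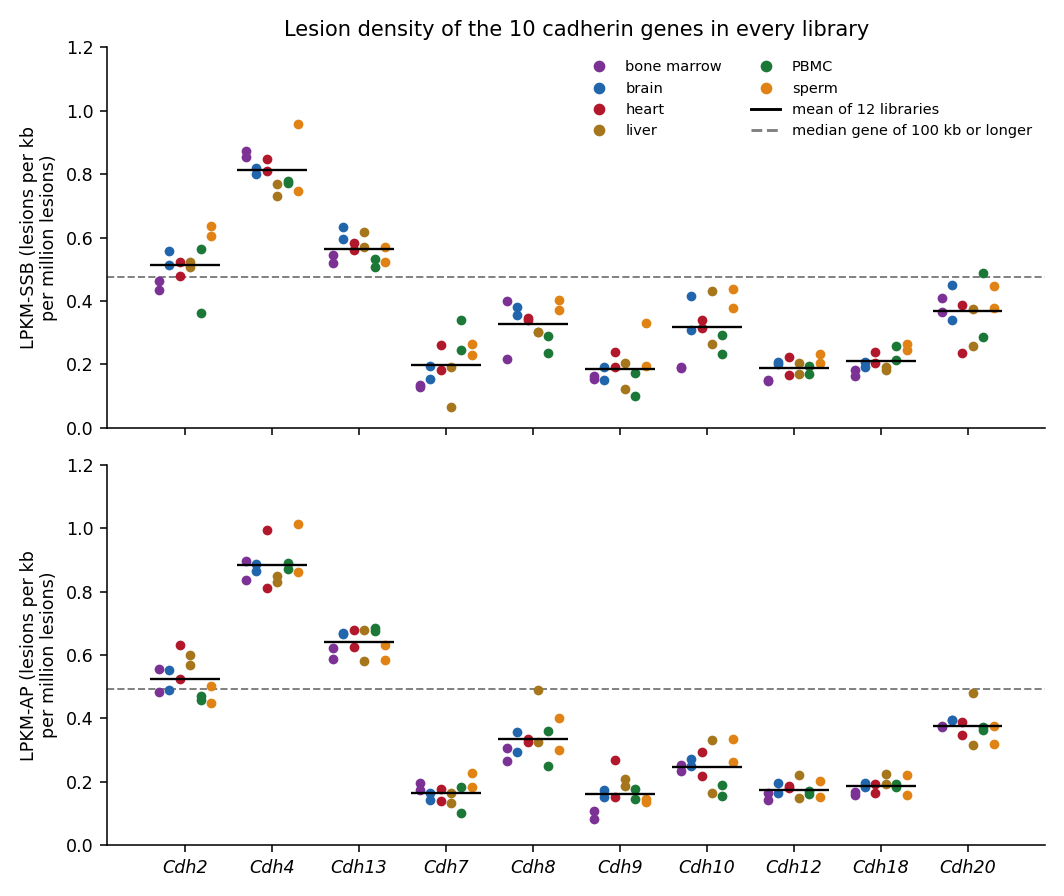
Lesion density (LPKM, y axis) of the 10 genes (x axis) in every SSB library (top) and AP library (bottom), with 1 point per library coloured by tissue, a bar at the mean of 12 libraries and a dashed line at the median of 2738 genes of 100 kb or longer (0.475 and 0.494). Cdh4, Cdh13 and Cdh2 have means above the line and the 7 type II genes below it.

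The order of the genes followed that of the DNA around them. For each gene, density was also taken over the bases within 500 kb of either end that lie in no annotated gene. The flank of Cdh4 had the highest mean density, at 0.625 ± 0.054 for SSBs and 0.699 ± 0.042 for AP sites (SD, n = 12), and that of Cdh7 the lowest, at 0.106 ± 0.017 and 0.102 ± 0.014. Across the 10 genes, pooled gene and flank densities had a Pearson correlation of 0.934 for SSBs and 0.963 for AP sites (Spearman 0.976 for both). This is a description over 10 genes whose libraries are shared, and the flanks of the neighbours Cdh12 and Cdh18 overlap at their edge. Over 2713 long genes with enough gene-free flank the correlation was 0.645 and 0.667.

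Within the genes the density was nonetheless mostly higher than in the flank. Cdh2 exceeded its flank in 12 of 12 SSB libraries and 12 of 12 AP libraries, with ratios of 2.17 ± 0.43 and 2.17 ± 0.41. Cdh10 did so in all 24 libraries as well, with ratios of 1.97 ± 0.46 and 1.70 ± 0.34, as did Cdh8 (1.69 ± 0.33 and 1.99 ± 0.32), Cdh12 (1.36 ± 0.21 and 1.37 ± 0.16), Cdh18 (1.34 ± 0.18 and 1.42 ± 0.20) and Cdh4 (1.31 ± 0.17 and 1.27 ± 0.089). Cdh7 exceeded its flank in 11 of 12 libraries of each lesion (1.88 ± 0.65 and 1.63 ± 0.32). Cdh20 did so in 11 of 12 SSB and 12 of 12 AP libraries (1.51 ± 0.18 for AP sites), and Cdh9 in 10 of 12 and 9 of 12 (1.31 ± 0.37 and 1.31 ± 0.38). For Cdh13 the ratio was 1.21 ± 0.073 for AP sites, above 1 in 12 of 12 libraries, and 1.09 ± 0.18 for SSBs, above 1 in 7 of 12. Its range for SSBs (0.817 to 1.46) contained that for AP sites (1.12 to 1.33), and a difference between the lesions was not tested. A gene richer than its flank is the usual case, since 76.4% of the 2713 long genes for SSBs and 78.1% for AP sites showed it, with medians of 1.28 and 1.31. Cdh2 was among the most contrasted, and 94.4% of those genes had a lower pooled ratio for SSBs.

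**Figure D2:**
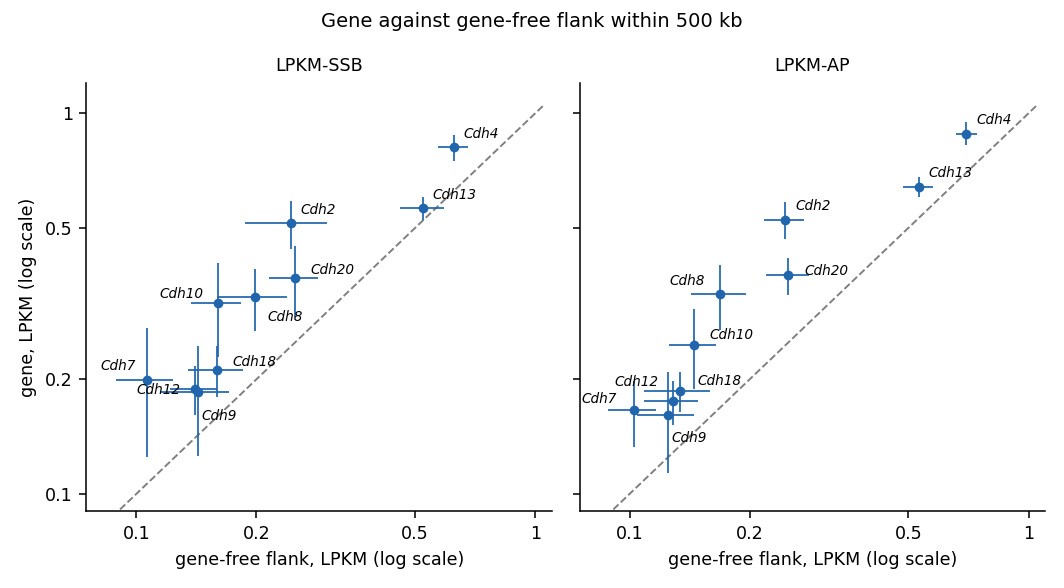
Mean gene density (y axis, LPKM, log scale) against the mean density of gene-free DNA within 500 kb (x axis, LPKM, log scale) for SSBs (left) and AP sites (right), with SD bars over 12 libraries and a dashed line where both are equal. All 10 genes lie above the line, Cdh2 farthest and Cdh13 closest for SSBs.

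The next comparison asked whether the genes differed between tissues. No member passed the test across the 6 tissues in the SSB libraries (0 of 10, edgeR quasi-likelihood F test, Benjamini-Hochberg adjusted p of at least 0.156, the value of Cdh12), where 48 of 38482 genes did (0.125%). DESeq2 also called 0 members, with 2 left without an adjusted p. At an unadjusted p under 0.05, 6 of the 10 members passed (Cdh12, Cdh10, Cdh18, Cdh13, Cdh8 and Cdh7) against 4.85% of all genes, and none survived the adjustment. Most of those genes are shorter than the members, and the share was not taken for long genes alone. In the AP libraries 0 of 10 members passed, none had an unadjusted p under 0.05, and 0 of 41370 genes were called (0%, with 1219 at an unadjusted p under 0.05, and 1 gene called by DESeq2).

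Of these 6 members, Cdh12, Cdh10 and Cdh18 had their lowest SSB density in bone marrow, Cdh13 and Cdh8 in PBMCs and Cdh7 in liver. Cdh12 measured 0.146 and 0.151 LPKM-SSB in the 2 bone marrow samples, 0.207 and 0.202 in brain, 0.168 and 0.223 in heart, 0.203 and 0.168 in liver, 0.170 and 0.196 in PBMCs, and 0.232 and 0.203 in sperm. Both bone marrow values were below the other 10, and neighbouring tissues above them overlapped. Cdh10 measured 0.188 and 0.193 in bone marrow, 0.308 and 0.417 in brain, 0.341 and 0.316 in heart, 0.432 and 0.264 in liver, 0.293 and 0.232 in PBMCs, and 0.378 and 0.436 in sperm. Here too both bone marrow values were the lowest, although they rest on 17 and 9 positions. Cdh18 measured 0.162 and 0.183 in bone marrow and 0.244 and 0.263 in sperm, with the other tissues between 0.183 and 0.258. Cdh13 had its lowest mean in PBMCs, at 0.506 and 0.533, with 0.519 and 0.545 in bone marrow and its highest mean in brain, at 0.596 and 0.633. Cdh8 measured 0.237 and 0.291 in PBMCs, 0.216 and 0.399 in bone marrow and 0.373 and 0.402 in sperm. Cdh7 measured 0.0659 and 0.193 in liver, 0.130 and 0.134 in bone marrow, and 0.245 and 0.341 in PBMCs, where it was highest. The members thus did not share 1 order of tissues. Across the 10 members, the lowest tissue mean for SSBs was in bone marrow for 4 and in PBMCs for 3, and the highest was in sperm for 7.

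With positions and lengths pooled over all 10 genes, LPKM-SSB was 0.336 and 0.354 in bone marrow and 0.424 and 0.392 in sperm, a ratio of means of 1.18. Such a density is weighted by gene length. The type II genes had the wider gap, with 0.177 and 0.211 in bone marrow and 0.281 and 0.275 in sperm. The whole class of genes of 100 kb or longer moved the same way by less, from 0.432 ± 0.006 in bone marrow to 0.457 ± 0.004 in sperm (SD, n = 2). With positions outside genes as the library size the ratio of the members was 1.09. For AP sites the pooled LPKM was 0.359 and 0.371 in bone marrow and 0.384 and 0.394 in sperm, a ratio of 1.07. These tissue values are descriptions, since no member passed the test, and DNA of sperm was isolated with another kit than that of the other tissues, so that kit and tissue cannot be told apart.

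Cdh13 and Cdh2, both known from heart, were set against the 7 type II genes, which are known from neurons. The ratio of their densities in LPKM-SSB was 2.45 and 2.23 in the 2 heart samples, against 2.62 and 2.33 in brain, 2.98 and 2.41 in bone marrow, 2.56 and 2.84 in liver, 2.03 and 2.38 in PBMCs, and 2.05 and 1.97 in sperm. The heart values lay inside the span of the other tissues, and the heart mean was 0.968 of the mean of the others. For LPKM-AP the ratio was 2.99 and 2.89 in heart and 2.09 to 3.37 elsewhere, and the heart mean was 1.01 of the mean of the others. The 2 liver samples alone set both ends of that range, at 2.09 and 3.37.

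**Figure D3:**
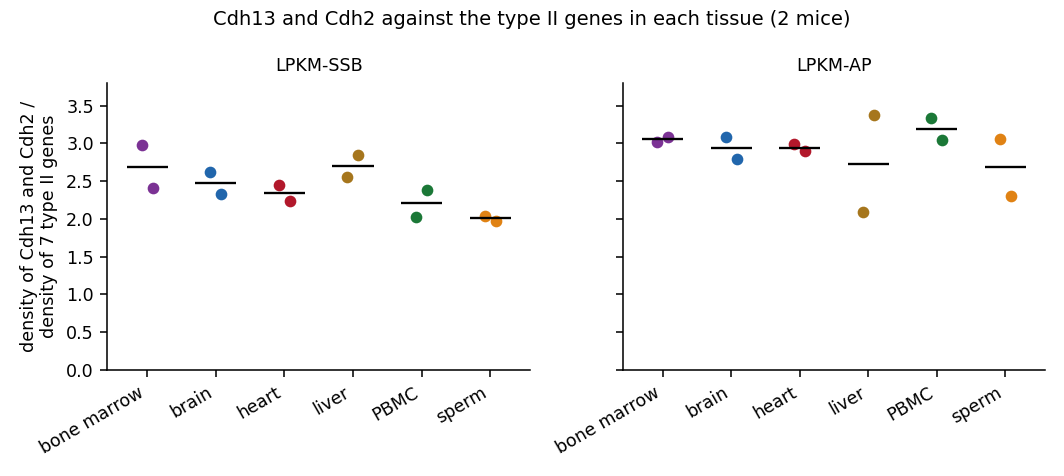
Density of Cdh13 and Cdh2 together divided by that of the 7 type II genes (y axis, a ratio) in each tissue (x axis), for SSBs (left) and AP sites (right), with 1 point per sample and a bar at the mean of the pair. The heart values (2.45 and 2.23, and 2.99 and 2.89) sit among those of the other tissues.

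Gene by gene, no member passed the test of heart against the mean of the other tissues. In that comparison Cdh2 had a log2 difference of 0.07 (SE 0.14) for SSBs and 0.23 (SE 0.13) for AP sites, and Cdh13 of 0.11 (SE 0.072) and 0.07 (SE 0.082). Over all genes of 100 kb or longer the median log2 difference was 0.10 (SSB libraries) and 0.05 (AP libraries), and with library totals in place of TMM scaling it was 0.01 for both lesions. In the SSB libraries 0 of 10 members passed (edgeR; 1 at an unadjusted p under 0.05, Cdh12, with a log2 difference of 0.23, SE 0.10; DESeq2 0), against 3 of 38482 genes (0.0078%). The difference of Cdh12 was -0.12 when the second heart sample was left out. In the AP libraries 0 of 10 members passed (edgeR; 0 at an unadjusted p under 0.05; DESeq2 0), against 0 of 41370 genes (0%, 1694 at an unadjusted p under 0.05, DESeq2 0).

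Brain is the tissue in which most of these proteins are studied. Cdh10 had the largest log2 difference of brain from the mean of the other tissues for SSBs, at 0.42 (SE 0.20), followed by Cdh8 at 0.27 (SE 0.14), Cdh20 at 0.24 (SE 0.17) and Cdh13 at 0.19 (SE 0.077). The median of this difference over all genes was 0.15, and over genes of 100 kb or longer it was 0.07, or 0.02 with library totals. None passed (0 of 10, edgeR, adjusted p of at least 0.939; 2 at an unadjusted p under 0.05, Cdh10 and Cdh13; DESeq2 0), and 0 of 38482 genes did (0%, 1885 at an unadjusted p under 0.05, DESeq2 0). For AP sites the members ranged from -0.07 (Cdh7) to 0.15 (Cdh10), with 0 of 10 passing (edgeR; 0 at an unadjusted p under 0.05; DESeq2 0) and 0 of 41370 genes (0%, 1781 at an unadjusted p under 0.05, DESeq2 0). The standard errors for SSBs were 0.077 to 0.36.

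The comparison that called members was the one between the 2 lesions. Cdh13 carried a smaller share of SSBs than of AP sites: its LPKM-SSB ran from 0.506 through a median of 0.565 to 0.633, and its LPKM-AP from 0.583 through 0.649 to 0.686. The SSB value was lower than the AP value of the same sample in 11 of 12 samples, the exception being a liver sample, and the mean ratio was 0.882 ± 0.083 (SD, n = 12). The log2 difference of SSB from AP was -0.28 (SE 0.053, edgeR adjusted p = 0.00025). Cdh4 followed, with an SSB value below the AP value in 10 of 12 samples, a mean ratio of 0.921 ± 0.067 and a log2 difference of -0.21 (SE 0.059, adjusted p = 0.0404). With the tissue sample as a block, the call of Cdh13 held (adjusted p = 0.000754) and that of Cdh4 did not (0.0705).

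These 2 of 10 members were called by edgeR, both with a smaller share of SSBs, against 419 of 41206 genes in either direction (1.02%) and 326 with a smaller share of SSBs (0.791%). Most of those genes are shorter than the members, and the share was not taken for long genes alone. Cdh13 and Cdh4 also held the most positions of the 10 members for both lesions. The balance of directions over all genes depended on the scaling: 93 genes were called higher and 326 lower for SSBs with TMM, 143 and 74 with library totals, and 20 and 588 with DESeq2. Cdh13 and Cdh4 were lower for SSBs under all of these, and under library totals the log2 difference of Cdh13 was -0.18 (SE 0.046) and still called (adjusted p = 0.0228), while that of Cdh4 was -0.12 (SE 0.053) and not called (0.364). The median log2 difference of genes of 100 kb or longer was -0.11 with TMM and -0.03 with library totals. Over all genes it was -0.08 with TMM and 0.006 with library totals. With TMM, part of each difference is thus shared with genes of any length. With all libraries thinned to the shallowest, 0 of 10 members were called.

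Cdh10 leaned the other way. Its LPKM-SSB ran from 0.188 through 0.312 to 0.436 and its LPKM-AP from 0.156 through 0.250 to 0.334. The SSB value was above the AP value in 10 of 12 samples, both exceptions being bone marrow, with a mean ratio of 1.31 ± 0.33 and a log2 difference of 0.27 (SE 0.11) that did not pass (adjusted p = 0.291). Cdh18 was also above 1 in 10 of 12 samples (mean ratio 1.15 ± 0.21, log2 difference 0.08, SE 0.072). For the other 6 members the log2 difference lay between -0.12 and 0.16, with 5 to 9 of 12 samples above 1. The median long gene had a ratio of 0.976 ± 0.014.

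**Figure D4:**
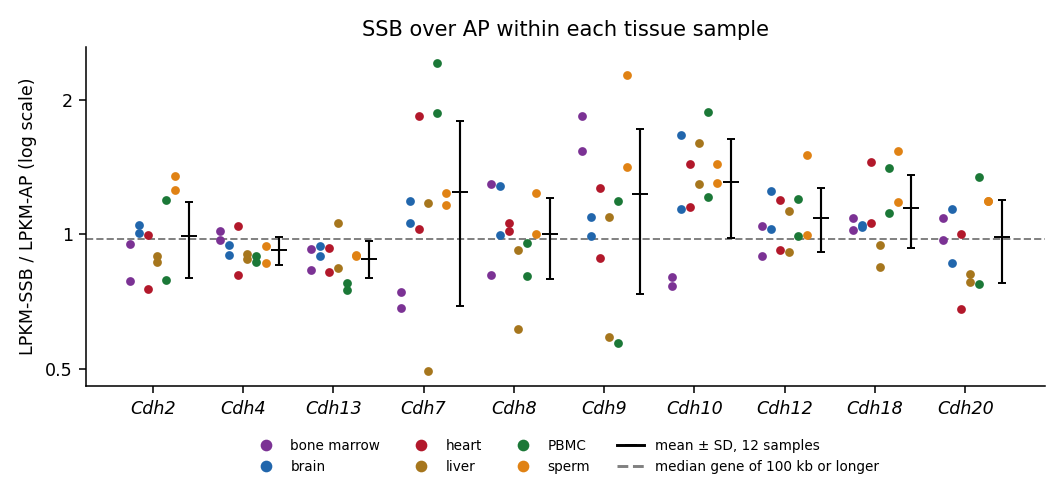
LPKM-SSB divided by LPKM-AP within each tissue sample (y axis, log scale) for the 10 genes (x axis), with 1 point per sample coloured by tissue, a black mark with SD bars for the mean of 12 samples and a dashed line at the median gene of 100 kb or longer (0.976). Cdh13 (0.882) and Cdh4 (0.921) have most samples below the line with little scatter, and Cdh10 (1.31) has 10 of 12 samples above 1.

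No member's tissue differences were shown to differ between the lesions (0 of 10 for the tissue-by-assay interaction, edgeR; 0 at an unadjusted p under 0.05; DESeq2 0), nor were those of any other gene (0 of 41206, 0%, with 1556 at an unadjusted p under 0.05 and DESeq2 0). Members also rose and fell only loosely together from library to library. Over the 45 pairs of members the median Pearson correlation of LPKM across 12 libraries was 0.252 for SSBs and 0.166 for AP sites, highest for Cdh7 with Cdh18 (0.709) and for Cdh8 with Cdh18 (0.804), and lowest for Cdh13 with Cdh18 (-0.323) and for Cdh13 with Cdh10 (-0.740). The libraries of a lesion share their depth and DNA preparation between genes, and the values are descriptions. Counting error also limits them. The variance over libraries was 0.713 to 2.13 times that of Poisson counts for SSBs and 0.576 to 3.02 times for AP sites.

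Along the genes, lesions gathered near annotated starts. A start site was listed for the 7 type II genes. A 5 kb window centred on the first listed one was compared with the gene as a whole, pooled over the 12 libraries of a lesion. The listed starts of Cdh12 (chr15:21111452) and Cdh18 (chr15:23036463) lie far inside their spans, so that these windows are within the genes. Windows of 5 kb at the upstream ends of the spans had 2.25 (SSBs) and 3.94 (AP sites) times the gene density in Cdh12. In Cdh18 they had 2.80 and 1.35 times. Cdh7 had 31 SSB positions in its window, a density of 1.12 LPKM-SSB (95% exact Poisson interval 0.763 to 1.59) against 0.188 for the gene, a ratio of 5.98. Its ratio for AP sites was 4.54, from 33 positions. Cdh18 had 4.19 times its gene density in SSBs and 3.20 in AP sites, Cdh8 of 2.98 and 3.18, Cdh20 of 2.78 and 2.73, and Cdh12 of 2.63 and 3.67. Cdh9 had 1.31 and 2.71, the first from 7 positions whose interval spans the density of the gene, and Cdh10 had 1.80 and 1.30, the second from 14 positions whose interval also spans the density of the gene. The intervals cover counting error only.

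Summed per library, the 7 windows were denser than the 7 genes in 12 of 12 SSB libraries, by 3.35 ± 0.96 times (range 1.55 to 4.58), and in 12 of 12 AP libraries, by 3.17 ± 0.73 times (range 2.32 to 4.97). Such a gain is common, since 85.8% of 2092 long genes with an annotated start for SSBs and 73.9% for AP sites had a denser start window, with medians of 1.64 and 1.31. Cdh7 was near the top of these genes, with 99.4% and 98.9% of them below its ratios, and Cdh18 exceeded 97.1% and 96.7%. For Cdh2, Cdh4 and Cdh13 no start was available, and 5 kb windows at both ends of the span had 0.658 to 1.75 times the density of the gene. The bases upstream of the starts differed in composition: the 250 bases before the first listed start held 20 CpG dinucleotides in Cdh8, 13 in Cdh7 and 2 in Cdh10, against a median of 6 over 32851 such windows, and none of the 7 held the letters TATAAA on either strand, which 12.4% of all windows did.

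**Figure D5:**
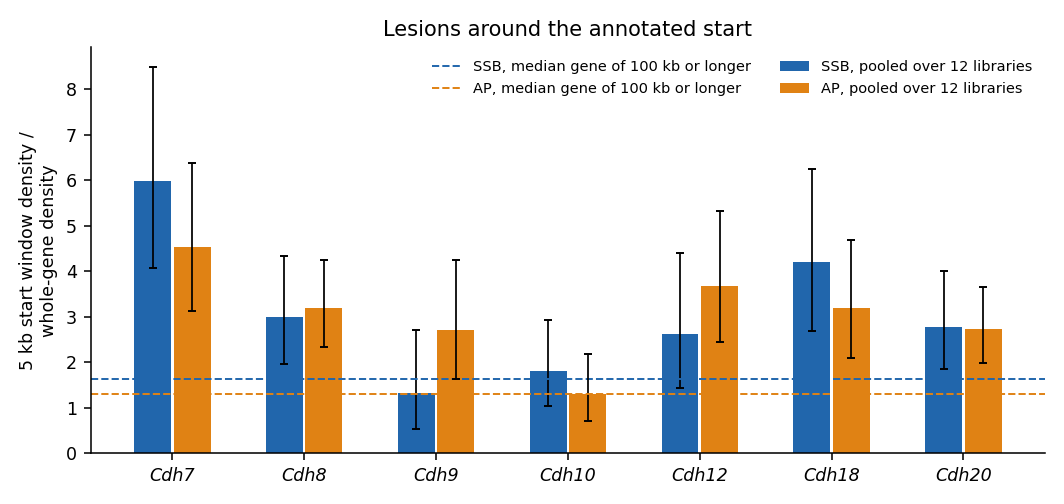
Density in a 5 kb window around the annotated start divided by the density of the whole gene (y axis, a ratio) for the 7 type II genes (x axis), as bars for SSBs and AP sites pooled over 12 libraries each, with 95% exact Poisson intervals. Dashed lines mark the medians of 2092 genes of 100 kb or longer (1.64 for SSBs and 1.31 for AP sites), and Cdh7 has the highest bars, at 5.98 and 4.54. The listed starts of Cdh12 and Cdh18 lie far inside their spans.

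In consecutive 10 kb bins the same places stood out in both lesions for 3 members. The densest bin of Cdh7 was its first (chr1:109982237-109992236) for SSBs and for AP sites, with 36 and 40 positions, or 3.49 and 2.78 times the mean bin. It held 21.3% of all SSB positions of the gene. Cdh12 had its densest bin inside the gene (chr15:21008878-21018877), away from the annotated start, with 33 SSB positions in 10 of 12 libraries and 66 AP positions in 12 of 12, or 3.10 and 4.34 times the mean bin. Single libraries held 0 to 6 SSB positions and 1 to 9 AP positions there, so that no library accounts for the bin. Cdh10 shared its densest bin between lesions as well (chr15:18968869-18978868), with 38 and 37 positions. In Cdh2, Cdh4 and Cdh13 the densest bin held 1.48 to 1.94 times the mean. The type II genes Cdh8, Cdh9 and Cdh20 had a similar range, 1.46 to 1.98 times, and Cdh18 had 2.81 (SSBs) and 2.24 (AP sites) times. Bins chosen as the densest are high by choice, and these values carry no test.

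Recurrence at single nucleotides was rare. In Cdh13, 12 of 3709 distinct SSB nucleotides (0.324%) and 94 of 6629 distinct AP nucleotides (1.42%) were found in more than 1 library, and in no member did a nucleotide recur in more than 2 SSB or 3 AP libraries. Cdh7, Cdh9 and Cdh20 had 0 recurrent SSB nucleotides.

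Lesions were spread over both strands. Of the 7 members whose strand is annotated, none differed between the coding and the template strand for SSBs (0 of 7, edgeR; 0 at an unadjusted p under 0.05; DESeq2 0), against 654 of 25414 genes (2.57%), 638 of them with more on the coding strand. For AP sites 0 of 7 differed (edgeR; 2 at an unadjusted p under 0.05, Cdh12 and Cdh18, both with more on the coding strand; DESeq2 0), against 15 of 26016 genes (0.0577%). The pooled share on the coding strand ran from 49.9% (Cdh8) to 55.0% (Cdh7) for SSBs, with 95% Wilson intervals of 46.2% to 53.5% and 47.5% to 62.3%, and over long genes of known strand it was 53.6%. Cdh2, without strand information here, had 42.6% of its 631 SSB positions on the plus strand (95% Wilson interval 38.8% to 46.5%), with 1 of 12 libraries above 50%, and 49.3% of its 1004 AP positions. This share was not tested.

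Other genes of the family and their partners were read out of the same fits. Over all genes, 0.125% passed across tissues for SSBs, 0% across tissues for AP sites and 1.02% between the lesions. Of 13 further cadherins, 0 passed across tissues for either lesion (edgeR; 2 for SSBs and 1 for AP sites at an unadjusted p under 0.05), and 1 passed between the lesions. That gene was Cdh6, a type II cadherin of kidney and neural crest, which like Cdh13 and Cdh4 held a smaller share of SSBs (0.505 ± 0.112 LPKM-SSB and 0.597 ± 0.065 LPKM-AP, SD, n = 12; log2 difference -0.35, adjusted p = 0.0352). Of 7 catenin genes, 1 passed across tissues for SSBs and 0 for AP sites, and 0 passed between the lesions. The exception was Ctnna2, which encodes the neuronal alpha-catenin that links cadherins to actin and spans 1098179 bp. It measured 0.264 and 0.262 LPKM-SSB in bone marrow and 0.427 and 0.510 in sperm, with the other tissues between 0.357 and 0.416 (adjusted p = 1.1e-06). The low bone marrow and high sperm values of Ctnna2 are the order also seen in Cdh12, Cdh10 and Cdh18, which did not pass. Ctnna2 was also the 1 catenin of 6 tested that was called between strands for SSBs (edgeR adjusted p = 0.0437), against 2.57% of all genes. All 6 had an unadjusted p under 0.05 in that test, as did 3174 of 25414 genes.

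The genes whose LPKM-SSB ran most like the sum of the 10 members over the 12 libraries were Lrp1b (Pearson 0.934), Kcnq5 (0.906), Epha3 (0.900), Ntng1 (0.897) and Grik2 (0.888), of 936 genes with a mean of at least 50 positions per SSB library. The median correlation over those genes was 0.124. All 5 are long genes, of 320644 to 2058309 bp, which the required number of positions favours. They share libraries and depth with the members. Lrp1b, a giant receptor of the LDL receptor family, ranged from 0.140 to 0.285 LPKM-SSB.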

How the data were processed

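DNA lesions were profiled in 24 libraries: 6 tissues of 2 mice, each with SSiNGLe (SSB) and SSiNGLe-AP (AP). Per the labels the lists are on mm10 (GRCm38). The authors deposited, for each library, a list of stranded lesion positions with a raw read count, not normalized and not pooled. The aligner is not given in the sources used here.

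Each position was counted once over whole gene spans of the GRCm38.p6 RefSeq annotation (49939 genes, both strands, overlapping genes each credited). No exon map was used. LPKM is positions times 1e+09, divided by gene length and library total. Genes with a position in at least 20% of the libraries entered edgeR 4.0.16 (quasi-likelihood, TMM on library totals, Benjamini-Hochberg adjustment over all genes, threshold 0.05) in R 4.3.3: across tissues, heart or brain against the mean of the other 5 tissues, SSB against AP with tissue as covariate, their interaction, and coding against template strand with library as covariate. All were two-sided. Simulated counts with known changes were run through the SSB tests across tissues, of heart and between strands, the test between lesions and the interaction. The brain tests and the tests within AP libraries were not simulated. For the interaction, recovery was judged on unadjusted p alone, as it has the least power. Alternatives were DESeq2 1.42.0, library totals, other filters (none, or 80% of libraries), summed counts, equal depth (225011 positions), leaving out bone marrow, sperm or each sample, and a replicate block. Counting and plots used Python 3.11.15 with matplotlib 3.10.9, pandas 2.3.3, scipy 1.17.1 and numpy 2.4.6.

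The genes named are the 10 members, any of 13 other cadherins and 7 catenins that passed a test, and the 5 genes whose LPKM-SSB correlated most with the summed LPKM-SSB of the members. The members and lists were chosen with earlier results of these data known. RefSeq start windows matched 7 of the 10 members, and 3 had none.

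The labels state that SSB and AP libraries of 1 number and tissue come from the same sample, so that the block for SSB against AP is the tissue sample. Across tissues, deviations of same-numbered SSB libraries from their tissue mean correlated by -0.05 to 0.03 over 2485 long genes (15 pairs), same-numbered AP libraries by -0.23 to 0.19 (15 pairs, 2 of them over 0.1), and SSB with AP libraries of the same sample by -0.01 to 0.02 (6 pairs). Replicates are separate animals, and with 2 per tissue the precision rests on the fit across all genes. Intervals cover counting error only.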

Additional observations from a re-analysis of the deposited data

How the results depend on the processing

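For 9 of the 10 tests the number of members called was 0 under every alternative run (19 or 21 each, leaving out single samples included), with DESeq2 giving no adjusted p for 2 members across tissues for SSBs and for 2 between the lesions. Depth bounds these counts: thinned to equal depth, 6 genes in all were called between the lesions and 9 across tissues for SSBs. Between SSBs and AP sites 2 members were called, and the number was 0 at equal depth, 1 with library totals, 1 with the stricter filter, 1 with the replicate block (tissue sample as a block), 1 without bone marrow, 1 without sperm, and 1 to 2 when single samples were left out. The call that was lost was that of Cdh4, which fell outside the threshold in 7 of the 12 fits without a sample and held in the other 5, while Cdh13 was called in all 12 and lost its call at equal depth alone (log2 difference -0.19, adjusted p = 0.337). For Cdh13 both the log2 difference (-0.28 to -0.19) and its SE (0.053 to 0.062) changed from the main fit to equal depth. The cause of these losses was not tested. Over the alternatives the log2 difference of Cdh13 lay between -0.30 and -0.18 and that of Cdh4 between -0.25 and -0.12, with library totals giving the smallest size for both.

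For members that were not called, the sign of the difference between SSBs and AP sites turned for Cdh2 at equal depth (0.0288), for Cdh9 without sperm (-0.00471), and for Cdh12 without sperm (-9.4e-05) and when single samples were left out (-0.0116 to 0.0691). The heart difference of Cdh12 turned when the second heart sample was left out (-0.12 to 0.37 over single samples). The pooled density of the members in sperm was 1.18 times that in bone marrow for SSBs, 1.09 with positions outside genes as library size, and 1.14 to 1.23 without single samples. The ratio of Cdh13 and Cdh2 to the type II genes in heart kept within its spread under every alternative. It was 0.924 to 1.01 of the other tissues for SSBs and 0.976 to 1.02 for AP sites. The mean LPKM of each member stayed within its SD with summed counts and at equal depth. It also did so without single libraries, but leaving out 1 of 12 libraries cannot move a mean by its SD. Most of the 280 recomputed means are of that kind and are no test of stability.

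Counts over all genes moved more. Across tissues for SSBs, 48 genes were called, and 3 to 66 under the alternatives (3 without bone marrow, 7 without sperm, 15 with library totals, 16 with DESeq2, 16 with summed counts, 59 with the replicate block, and 4 to 65 without single samples). Between SSBs and AP sites 419 genes were called, and 6 to 608 (307 with the block). Between strands 654 genes were called for SSBs and 135 to 820 under the alternatives, and 15 for AP sites and 0 to 20. In the heart comparison for SSBs 3 genes were called and 0 to 2. The replicate block changed no other call of a member.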
